A study of Drosophila melanogaster with 4 samples.

Results

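Compact sites of RNA polymerase II phosphorylated at serine 5 were described in CME-W1-Cl.8+ cells (Clone 8), a cultured Drosophila melanogaster line labelled as male and as derived from the dorsal mesothoracic disc at the third larval instar. A compact cluster was a region of the list combined for the series that had a score above 0, lay on 2L, 2R, 3L or 3R, was under 3000 bp wide and overlapped an enriched region of each ChIP replicate by at least 1 bp. There were 1623 such clusters among the 5309 enriched regions of the combined list. The series holds 4 samples, 2 ChIP libraries and 2 libraries of input DNA, all from untreated cultures of this line as far as the labels say. Both ChIP libraries were made with the rabbit polyclonal antibody ab5131 from cells fixed with 1.8% formaldehyde for 10 min. The line carries the name of a single clone, and whether the replicates are separate cultures is not stated, so their differences may reflect handling alone. The files hold no read counts, and the depth behind each score is unknown.

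The largest subunit of RNA polymerase II ends in a long tail of repeated heptads, and serine 5 of the heptad is phosphorylated by the Cdk7 kinase of the general factor TFIIH as the enzyme leaves the promoter. The mark draws in the enzymes that cap the nascent RNA, and it is typically densest near the start of a gene and declines along the gene body. In Drosophila many genes hold a polymerase that has paused shortly after the start, held by the factors NELF and DSIF, and such a polymerase carries the mark. A short enriched region can therefore arise at a promoter, at a paused gene or along a gene that is itself short. Which of these a cluster is was not determined here: positions are on FlyBase release 5, the gene table used follows release 6, and no sequence or gene name was read across the releases. The description thus rests on width, score and position, and the clusters are called compact rather than promoters. For the same reason, genes that mark the labelled tissue could not be examined. Scores are the values the authors gave their regions, on a scale not given in the sources used here.

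The combined list held 4022 clusters on these arms, of which 82.3% overlapped both replicates at any width. Of the 2313 that were under 3000 bp, 1623 (70.2%) did so and became compact clusters. The other 690 narrow regions were 200 that overlapped replicate 1 only, 170 that overlapped replicate 2 only and 320 that overlapped neither. They were narrower and scored lower, with a median width of 1573 bp and a median score of 0.31, against 2251 bp and 0.89 for the compact clusters. Of these, 207 were narrower than the narrowest region of either replicate list, which was 1301 bp wide in replicate 1 and 1302 bp in replicate 2. Compact clusters made up 49.0% of the clusters found in both replicates on these arms but only 24.5% of the sequence that such clusters covered, 3.75 Mb. Width, score above 0 and overlap chose the compact clusters, so the members were selected on measured values of the same lists, and what follows describes them without a test.

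The widths of the compact clusters, bounded above by the rule that chose them, ran from 1561 to 2999 bp, with quartiles of 2097 and 2484 bp. The matched regions of the replicate lists were slightly narrower, with medians of 2188 bp in replicate 1 and 2197 bp in replicate 2, a mean of 2192.5 ± 6.36 bp (SD, n = 2). A cluster of the combined list was wider than its counterpart by a median of 60 bp in replicate 1 and 46 bp in replicate 2. The narrowest lay at 2L:3812310-3813870, with a score of 0.23 in the combined list, 0.43 in replicate 1 and 0.36 in replicate 2. The next in width were at 3L:4793108-4794694, at 2R:13302558-13304172, at 2L:8013504-8015128 and at 2R:12737394-12739022. Except for 2L:8013504-8015128 these all scored under 0.5 in the combined list. That cluster, 1625 bp wide, scored 0.84, and its scores of 1.40 and 1.28 in the replicates were both higher than this.

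The limit of 3000 bp fell where widths followed each other closely. The 5 widest compact clusters were 2997 to 2999 bp wide, at 3L:871050-874048, 3L:3419412-3422410 and 3L:8989466-8992464, and at 3R:22936500-22939498 and 3R:25822066-25825062. Their scores were 1.37, 0.93, 1.24, 1.84 and 0.69 in that order. The first 5 clusters past the limit were 3001 to 3003 bp wide, at 2L:6081618-6084618 and 2L:22688936-22691936, at 2R:19600150-19603150, at 3L:17646142-17649142 and at 2L:19814526-19817528. They scored 1.59, 1.43, 3.22, 1.75 and 2.52, each above 4 of the 5 just inside.

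Score rose with width up to about 2400 bp, was lower beyond it and had no clear order there. The 203 compact clusters of up to 2000 bp had a median score of 0.26, and none of them reached a score of 2. Above 2000 and up to 2200 bp the median was 0.60 (447 clusters), and above 2200 and up to 2400 bp it was 1.55 (473 clusters). The 500 clusters above 2400 bp stood lower again, at 1.18. High scores were concentrated in the same range: 142 of the 240 compact clusters with a score of at least 2 were over 2200 and up to 2400 bp wide, and 96 were wider. Over all 1623 compact clusters, wider ones scored higher (Spearman's rho 0.62). Among clusters of up to 2400 bp rho was 0.82 (n = 1123), whereas above 2400 bp it was -0.017 (n = 500). The cut at 2400 bp falls where the median score peaked, so part of this contrast follows from where the cut lies. Within the 4 sections rho was 0.62 up to 2000 bp, 0.66 from there to 2200 bp, 0.21 to 2400 bp and -0.017 above. These are correlations across regions of 1 list, in which width and score come from the same signal.

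The peak between 2200 and 2400 bp was also present when width was read from one library and score from the other. This was no independent check, as the same clusters, chosen on combined-list width, were read. Their replicate scores were also much alike (rho 0.93). With widths from replicate 1, the median replicate 2 score was 0.41 up to 2000 bp, 0.79 from there to 2200 bp, 1.59 to 2400 bp and 1.37 to 3000 bp. With widths from replicate 2, the median replicate 1 scores were 0.43, 0.75, 1.63 and 1.39. Both readings thus placed the highest typical score in the same 200 bp of width. The clusters just above it were closer to their neighbours: the median gap to the nearest cluster was 2025 bp above 2400 bp and 3539 bp at or under it.

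**Figure D1:**
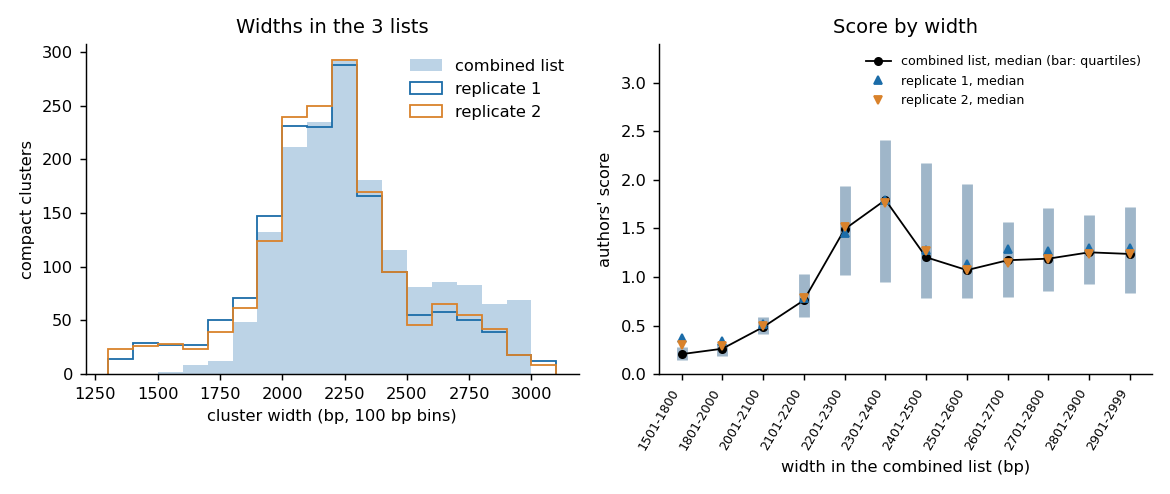
Left, number of compact clusters by width in bp, in the combined list (filled, 1623 clusters), and of their counterparts for the 1607 matched one to one (outlines, 1 per replicate; the last bin also holds the few counterparts of 3100 bp or more). Right, authors' score by width in the combined list, as the median with quartiles and the medians of the replicate scores for the same clusters; the median rises to 1.79 in the bin that ends at 2400 bp and is between 1.07 and 1.25 in the wider bins.

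Compact clusters spanned nearly the whole range of scores but sat mostly in its lower part. Their combined-list scores ran from 0.013 to 4.37, with quartiles of 0.51 and 1.55, against a median of 1.03 for all enriched regions. In all, 713 of them (43.9%, Wilson 95% interval 41.5 to 46.4%) scored above that median, against 50.0% of all clusters on these arms. The latter include clusters not found in both replicates. Of the wider clusters found in both, 72.7% from 3000 to under 10000 bp and 90.2% of 10000 bp or more scored above that median. The interval covers counting only and treats clusters as independent. In the replicate lists the matched regions had median scores of 0.93 in replicate 1 and 0.93 in replicate 2, and 39.6% and 38.0% of them stood above the median of their list, a mean of 38.8 ± 1.14% (SD, n = 2). Compact clusters made up 91.5% of the clusters found in both replicates with a score under 0.5, then 31.0% of those between 1.5 and 2, and again 52.1% of those between 2.5 and 3. The share was 37.7% between 2 and 2.5, 42.5% between 3 and 3.5, 2 of 7 between 3.5 and 4 and 5 of 7 from 4 upward. Among the highest scoring clusters found in both replicates on these arms, 22 of the first 50 and 53 of the first 100 were compact, shares of 44% and 53% beside the 49.0% over all scores. Compact clusters thus dominated the lowest scores, and above a score of 2 their share varied around the share over all scores without a steady trend. Clusters of at least 3000 and under 10000 bp, called medium below, had a median score of 1.37 (n = 1453) and those of 10000 bp or more 1.63 (n = 234).

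The replicates ordered the compact clusters much alike. Across the 1607 that matched 1 region in each list and no other, Spearman's rho between the replicate scores was 0.93. A shared input library would be common to both scores, and whether the lists shared one was not given in the sources used here. The place of a cluster in its list differed between the replicates by a median of 5.58 percentile points. The combined score lay between both replicate scores for 1214 clusters, below both for 392 and above both for 1. Of the 392, 179 were in the lowest of 4 equal groups by score and 41 in the highest.

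**Figure D2:**
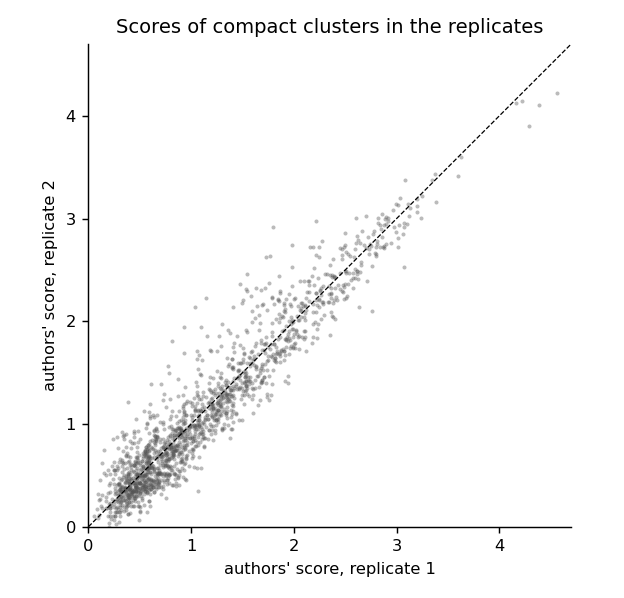
Authors' score in replicate 1 (horizontal) and replicate 2 (vertical) for each of the 1607 compact clusters matched one to one; the dashed line marks equal scores. Most points lie close to the line (rho 0.93), and the points far from it are mostly above it, where replicate 2 is higher.

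The combined-list scores of the 20 strongest compact clusters ran from 3.07 to 4.37 and their widths from 2241 to 2965 bp, with a median of 2530 bp, and each was a single region in each replicate. None ranked lower than 89 in replicate 1 or 87 in replicate 2. By arm, 2L had 8 of the 20, 2R and 3L had 5 each and 3R had 2. The ranks are not independent of the combined score.

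A group of 5 stood above the rest, with scores over 4 in the combined list. The site at 2L:13214654-13217422 had the highest score, 4.37, and scored 4.56 in replicate 1 and 4.22 in replicate 2. The site at 2L:21213722-21216374 scored 4.39 in replicate 1 and 4.11 in replicate 2, and its start was the same base in both lists. The site at 3R:19683870-19686606 scored 4.22 and 4.15, with edges 2 and 19 bp apart. All 5 sites of this group were higher in replicate 1. The site at 2L:13243268-13246110 scored 4.16 and 4.12, with edges 5 and 8 bp apart, and the site at 3L:3089642-3092284 scored 4.29 and 3.90. A step then separated these 5 from the sixth, at 2L:900274-902770, which scored 3.60 in the combined list, 3.63 in replicate 1 and 3.60 in replicate 2.

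The other 14 scored from 3.07 to 3.52. On 2L they were the sites at 2L:20158266-20160506, 2L:10456544-10458898, 2L:5107410-5109770 and 2L:9781066-9783848. On 2R they were at 2R:18083554-18085986, 2R:13151840-13154238, 2R:8866528-8869492, 2R:2764834-2767296 and 2R:2911424-2913810. On 3L they were at 3L:15227594-15230024, 3L:13220660-13222980, 3L:17479224-17482026 and 3L:3335728-3338378, and the last was at 3R:16738890-16741452. The first of the 3L sites was the most isolated of the 20, with 67.6 kb to its nearest cluster. Several others stood alone too: 6 of the 20 were at least 10 kb from any other cluster, while 4 had a neighbour within 1 kb. The 2L site from 20158266 was only 27 bp from the next cluster.

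Both edges of these strong sites mostly fell in the same place in both replicates. Starts differed by a median of 16.5 bp and ends by 18.5 bp, and in 15 of the 20 both edges lay within 50 bp. The site on 3L from 3335728 was an exception, since its end differed by 517 bp. Replicate 1 gave the higher score in 15 of the 20, by at most 0.38 in either direction.

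**Figure D3:**
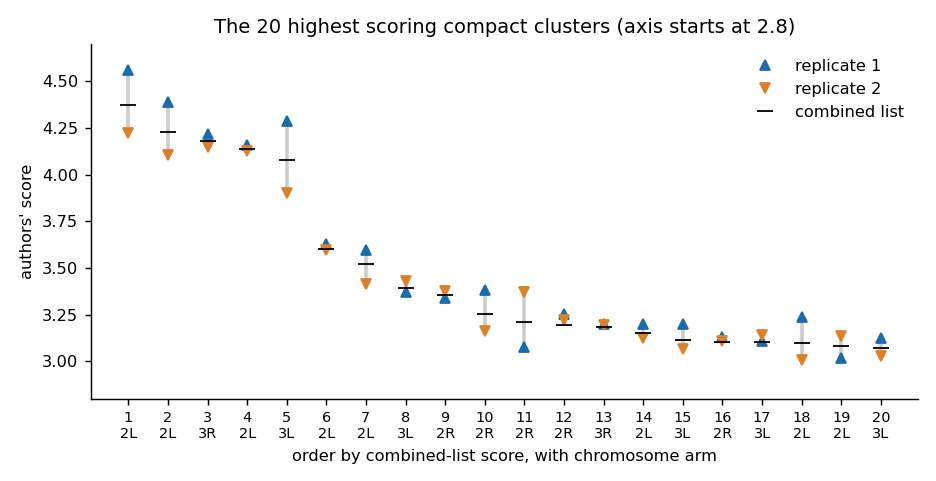
Authors' score of the 20 highest scoring compact clusters in both replicates and the combined list, in order of the combined score and labelled by chromosome arm; the axis starts at 2.8. The first 5 stand above 3.9 in every list, and the sixth is at 3.60 to 3.63.

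The edges of compact clusters fell close together in the replicates. For the 1607 matched one to one, the start differed between the replicates by a median of 39 bp, the end by 37 bp and the centre by 33 bp. Both edges lay within 20 bp in 216 clusters (13.4%), within 100 bp in 966 (60.1%, Wilson 95% interval 57.7 to 62.5%) and within 500 bp in 1538 (95.7%). The interval covers counting only, treats clusters as independent and rests on 1 pair of replicates. Neither replicate was shifted as a whole, as the median signed change from replicate 1 to replicate 2 was -3 bp for starts and 2 bp for ends. The edges moved in opposite directions in 862 clusters, so that the width changed, and in the same direction in 712. Replicate 2 had the wider region in 872 clusters and replicate 1 in 729.

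Stronger compact clusters had sharper agreement. When the matched clusters were split into 4 equal groups by combined score, the larger of the start and end differences had a median of 137 bp in the lowest group, 92.5 bp in the next, 64 bp in the third and 37 bp in the highest. Both edges lay within 100 bp in 40.3% of the lowest group and 78.9% of the highest. Medium clusters had a median difference of 84 bp for starts and 73 bp for ends, and those of 10000 bp or more of 112 and 61 bp. Both edges were within 100 bp in 30.1% and 29.2% of these wider classes, although only 80.7% and 38.0% of them were matched one to one at all. The difference in width was 72 bp in compact clusters, or 3.34% of the width, against 5.22% in medium clusters and 1.49% in those of 10000 bp or more. Both wider classes thus differed by more bases than compact clusters at each edge, but not in order of width, as the widest class differed less at the end than the medium one.

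**Figure D4:**
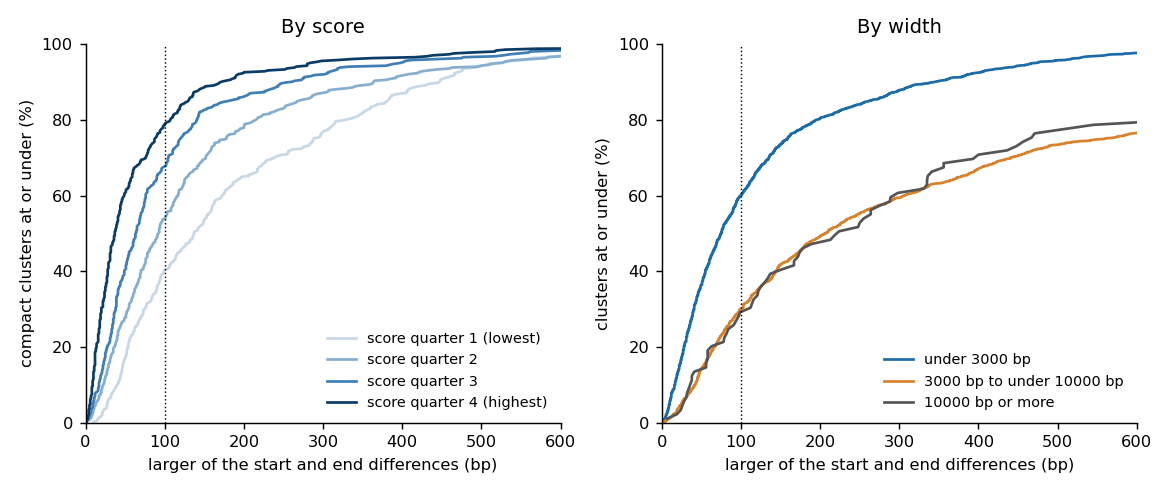
Cumulative share of clusters, in percent, by the larger of the start and end differences between the replicates, in bp, for clusters matched one to one. Left, compact clusters in 4 equal groups by combined score, of which 40.3% in the lowest and 78.9% in the highest lie within 100 bp (dotted line); right, the 3 width classes, with 60.1%, 30.1% and 29.2% within 100 bp.

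In 8 compact clusters both edges lay within 2 bp between the replicates. The 5 with the highest scores were at 3R:8749580-8751844, at 2R:20814628-20816874 and 2R:2767420-2769678, and at 2L:7432332-7434548 and 2L:4030338-4032550. Their scores were moderate, from 1.48 to 2.34, and their widths were all between 2213 and 2265 bp. The 2R site from 20814628 was 2232 bp wide in both replicates and scored 2.04 in replicate 1 and 2.15 in replicate 2. At the other end, 69 clusters had an edge that differed by over 500 bp. The largest difference, at a site singled out after its values were seen, was 1860 bp at the start of the cluster at 2L:18651872-18654082, which was 4000 bp wide in replicate 1 and 2024 bp in replicate 2.

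Compact clusters were rarely broken up, though under 3000 bp they had little room for 2 replicate regions of at least 1301 bp each. Only 16 of the 1623 were not matched one to one, so that the matched share was 99.0% (Wilson 95% interval 98.4 to 99.4%). Here too the interval covers counting only and treats clusters as independent. In 13 of the 16, a replicate region over the compact cluster also reached another cluster of the combined list, and 2 clusters were split in replicate 1 and 1 in replicate 2. The 16 scored from 0.16 to 2.78, with a median of 0.42. A width of 3000 bp or more in a replicate was seen for 17 clusters in replicate 1 and 13 in replicate 2, the widest replicate region being 14664 bp.

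Most compact clusters had another cluster within a few kilobases. The gap from a compact cluster to the nearest cluster of any width had a median of 3001 bp, with quartiles of 1056 and 8954 bp. In 388 clusters (23.9%) it was under 1 kb, in 187 (11.5%) at least 20 kb and in 50 (3.08%) at least 50 kb. From centre to centre, the nearest other compact cluster was 14882 bp away in the median case. The nearest cluster was another compact one for 703 (43.3%), a medium cluster for 577 (35.6%), a narrow region not found in both replicates for 253 (15.6%) and one of 10000 bp or more for 88 (5.42%). Compact clusters were 40.4% of all clusters on these arms, so this mix was close to that of the arms. Medium clusters had a median gap of 1967 bp to the nearest cluster and those of 10000 bp or more of 1535 bp.

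Many compact clusters followed each other with no other kind of cluster between them. With compact clusters at 40.4% of all clusters on these arms, such runs also form without grouping, and their expected number was not computed. Of the 1623, 521 had a cluster of another kind on each side or the end of an arm, and 1102 were in 384 uninterrupted runs. Of these runs 202 held 2 clusters and 2 held 9, the longest. The closest pair was 3R:26071284-26073368 and 3R:26073394-26075380, with 25 bp between them. The gap of this pair was wider in the replicates, at 375 bp in replicate 1 and 121 bp in replicate 2. On 3L, 45 bp separated the strong site from 3335728 from a cluster at 3L:3333894-3335682 that scored 0.15. The replicates gave that neighbour 0.32 and 0.21, against 3.13 and 3.03 for the strong site. The next pairs were at 3R:23782706-23787666 (47 bp apart), at 2L:8513570-8518566 (63 bp) and at 3R:20182522-20186698 (63 bp). In all 5 pairs the replicate lists kept both clusters apart, by 84 to 654 bp.

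The most isolated compact clusters were narrow sites in long stretches without enrichment. The one at 3L:18390398-18392604 had 208.6 kb free on one side and 221.4 kb on the other. It scored 1.28 in replicate 1 and 1.86 in replicate 2. The one at 2L:14688174-14690412 had 196.1 kb and 306.2 kb, scored 2.36 and 2.10, and its edges differed by 1 and 6 bp. The 2L site from 4030338, one of those with matching edges, had 133.2 kb and 153.8 kb. The others were at 3L:10217198-10219304, with 136.7 kb to its nearest cluster and scores of 0.65 and 0.80, and at 2R:21139986-21141986, the last cluster before the end of the arm, with 167.0 kb on its inner side and scores of 0.57 and 0.14. Isolated sites thus included both strong and weak ones.

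High scores were more common among isolated clusters, mainly on 1 arm. Of compact clusters at least 20 kb from any other, 24.1% (45 of 187) scored 2 or more, against 13.6% (195 of 1436) of those with a nearer neighbour. On 3L the shares were 42.6% (20 of 47) and 14.1%. On 2L they were 19.2% and 15.9%, on 2R 14.6% and 13.9%, and on 3R 19.1% and 11.0%. Without 3L they were 17.9% and 13.4%. On 2L the median score went the other way, at 0.74 for isolated clusters and 0.96 for the rest. With gaps and scores taken from the replicate lists alone, the shares over all arms were 20.5% and 13.0% in replicate 1 and 24.3% and 14.6% in replicate 2. Medium clusters had shares of 28.3% and 18.1%.

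**Figure D5:**
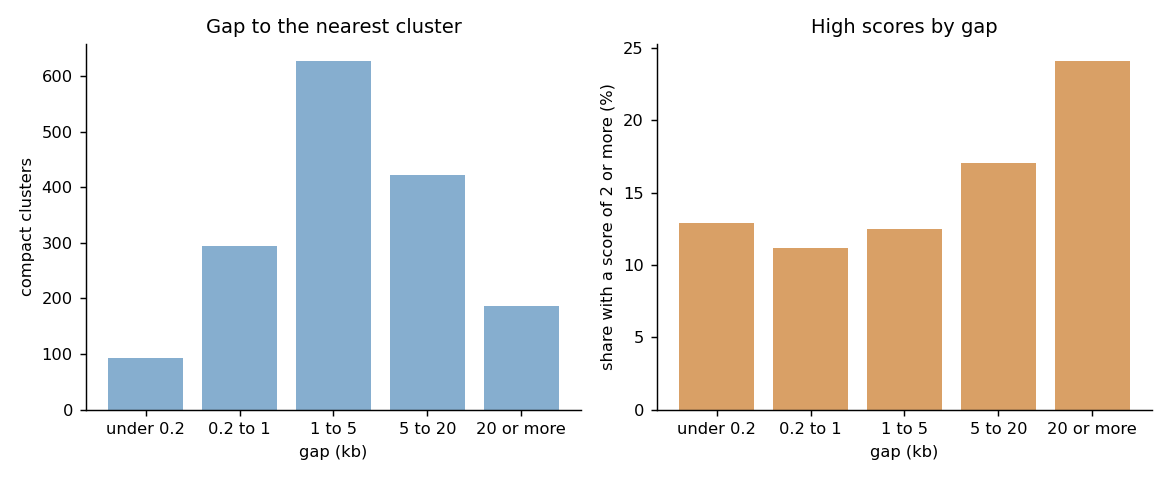
Left, number of compact clusters by the gap to the nearest combined-list cluster of any width, in kb; right, the share of them, in percent, with a score of 2 or more. The commonest gap is 1 to 5 kb (626 clusters), and the share is 24.1% at 20 kb or more against 11.2 to 17.1% at shorter gaps, a contrast that is largest on 3L.

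Along the arms, compact clusters were spread thinly with a few dense places. Of 969 windows of 100 kb, 266 held none, 247 held 1, and 6 held 7 or more. The richest, on 2L from 13.2 to 13.3 Mb, held 8 and only 1 other cluster, of 11065 bp. Among the 8 were the highest and the fourth highest scoring compact clusters of all. The fourth stood 177 bp from a neighbour at 2L:13240860-13243090, which scored 2.12 in replicate 1 and 2.23 in replicate 2. The remaining ones scored between 0.47 and 1.88 in the combined list. On 2R the windows at 18 to 18.1 Mb and at 18.5 to 18.6 Mb each held 7, as did 3 other windows, and their highest scores were 3.35 and 1.32. The longest stretch without a compact cluster was 669.4 kb at 3R:23790245-24459615, followed by 630.9 kb at 3R:26390623-27021551 and 512.7 kb at the end of 3L from 24030821. These stretches were not free of enrichment, as they held 7, 9 and 4 clusters of other kinds.

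A regular series of compact clusters stood on 2L. Among 222 sets of 3 successive compact clusters whose centres were each under 20 kb apart, 3 sets had both distances equal to within 20 bp, and all 3 lay on 2L between 21463336 and 21531596. This search was made after values had been seen. The first 4 clusters, which start at 21463336, 21468382, 21473426 and 21478466, were 2199 to 2209 bp wide and had centres 5045, 5040 and 5042 bp apart. The next 3, starting at 21518942, 21523792 and 21528638, were 2959 to 2979 bp wide and 4846 and 4840 bp apart. The first 4 were all higher in replicate 2, with scores of 1.80, 2.21, 1.64 and 1.54 in replicate 1 and 2.92, 2.97, 2.15 and 2.32 in replicate 2. Their starts agreed within 5 bp, while 3 of the 4 ends were 183 to 191 bp higher in replicate 2. The second set was less stable in shape: the cluster from 21518942 was 2951 bp wide in replicate 1 and 1494 bp in replicate 2. Between 21419966 and 21495546 the combined list alone held 6 further narrow regions, found in neither replicate, with scores of 2.96 to 3.51. The replication-dependent histone genes of this species form a tandem repeat on 2L, but no annotation of this release was used, and which genes these clusters cover was not determined. The treatment of reads from repeated sequence was not given in the sources used here.

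The 4 arms were alike in the shape of their compact clusters and differed more in how many they held. 2R had 421, or 19.9 per Mb, and the nearest compact cluster was 11180 bp away in the median case. 3R had 455 (16.3 per Mb), 3L 387 (15.8 per Mb) and 2L 360 (15.6 per Mb), with median distances of 15004, 17054 and 18007 bp. The share of compact clusters among those found in both replicates was 48.3 to 49.7% on every arm. Median widths were 2243 bp on 2L, 2253 bp on 2R, 2267 bp on 3L and 2249 bp on 3R. Median scores were 0.93, 0.85, 0.90 and 0.87 in the same order. Both edges agreed within 100 bp in 57.6% of matched clusters on 2R and in 59.1 to 62.7% on the other arms. By arm, scores of 3 or more belonged to 8 compact clusters of 2L, 8 of 3L, 6 of 2R and 2 of 3R.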

How the data were processed

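Per the labels, DNA from ChIP and input libraries was sequenced; the submitters' processing notes name Bowtie 0.12.7. The authors deposited 1 list of regions per ChIP replicate and 1 combined list, giving 1 score per region and, per the file headers, positions on FlyBase release 5. The caller, its threshold, the use of input and the making of the combined list were not given in the sources used here. The input libraries were not analysed here. No read depth was given, so no interval carries it.

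Regions with a score above 0 were used. Members and lists were chosen with earlier results of these data known. A cluster was matched one to one where it overlapped exactly 1 region in each replicate and each of these overlapped no other combined cluster. Gaps count the bases between neighbouring clusters of the combined list. All values are descriptions: tests over regions were not run. Score groups, windows of 100 kb and gap classes were set in the scripts. Named were the 20 highest scores, the 5 narrowest, widest and first beyond the limit, the 5 closest pairs, the 5 most isolated, the 5 with the largest change of score percentile between replicates among those matched one to one, the 5 highest scoring with edges within 2 bp, and the 3 richest windows and longest empty stretches. Matching and edge differences were tested on simulated lists and recovered exactly. There each replicate region was drawn inside its own combined region, so split or shared regions and large edge differences were not tried. Alternatives were widths under 2500 and 3500 bp, reciprocal overlap of 50%, the upper 50% of each list by score, merging within 1 kb, and each replicate alone. Scripts ran in Python 3.11.15 with pandas 2.3.3, numpy 2.4.6, scipy 1.17.1 and matplotlib 3.10.9.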

Additional observations from a re-analysis of the deposited data

How the results depend on the processing

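Of 61 alternative values for 10 results, 25 stayed within the spread, the interval or 1.5 times the original, and 36 moved beyond it. For median width and score the spread was the SD of the 2 replicate medians, 6.36 bp and 0.0021, so small changes count as moved. The intervals treat clusters as independent. A reciprocal overlap of 50% made the matched share 100% (99.0% before), which that requirement all but fixes, and moved nothing else. Keeping widths under 2500 bp gave a median width of 2187 bp, a median score of 0.77, 38.9% above the list's median score, 67.0% with both edges within 100 bp, 21435 bp to the nearest compact cluster and a rho of 0.91. Widths under 3500 bp gave 2301 bp, 0.98, 47.5%, 56.4%, 11602 bp and 0.94. Restricting every list to its higher scoring 50% left 560 clusters, with a width of 2365 bp, a score of 1.89, 99.6% matched, edge differences of 20 bp for starts and 20 bp for ends, 76.5% within 100 bp, 52323.5 bp apart and a rho of 0.88. Merging within 1 kb gave 2241 bp, 0.92, 40.1%, 99.6% matched, 62.6% within 100 bp and 21443 bp. Other widths, scores or overlaps keep other clusters by construction, and merging builds new ones; beyond that the cause was not tested. Requiring 1 replicate alone gave 1793 to 1823 clusters, a width of 2227 bp, scores of 0.77 to 0.79, shares of 39.2 to 39.9% above the list's median, 98.8 to 99.1% matched and 12353 to 12768 bp to the nearest. No paired analysis was possible because no result comes from a test and no input list was used here. Depth is unknown, so weak clusters near score 0 cannot be told apart from the caller's limit.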

Other observations

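Large score differences between the replicates ran mostly one way. Among the 1607 compact clusters matched one to one, 61 scored higher in replicate 2 by over 0.5, and 7 scored higher in replicate 1 by that much. Over all 1607, with differences of any size, replicate 1 had the higher score in 933 clusters and replicate 2 in 674. By place in the list the split of large differences was less uneven. Of 115 clusters that differed by over 20 percentile points, 78 were higher in replicate 2 and 37 in replicate 1. The 61 had median scores of 1.15 in replicate 1 and 1.89 in replicate 2, which placed them at the 48.9th and 79.4th percentile of the lists, and 53 of them were wider in replicate 2. Over all 61 the median width change from replicate 1 to replicate 2 was 106 bp. They were found on all 4 arms: 2L had 23, 2R 14, and 3L and 3R 12 each. Of the 7 that were higher in replicate 1, 6 lay on 3R and 1 on 2R, so that 3R had 12 against 6. The regular series on 2L held 5 of the 61. Without that series 56 and 7 remained. Among matched medium clusters the counts were 21 against 5 of 1173, and among matched X clusters under 3000 bp they were 19 against 6 of 326. The scale of the score and the input used for each list were not given in the sources used here. No test was made of the differences.

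Among the clusters matched one to one, the 5 whose place in the list changed most were all higher in replicate 2. The cluster at 2L:9983664-9985776 scored 0.39 in replicate 1 and 1.21 in replicate 2. The one at 2R:20490064-20492322 scored 0.81 and 1.81 and was 2018 bp wide in replicate 1 and 2437 bp in replicate 2. The others lay at 3R:8046032-8048258 and 3R:14564130-14566924 and at 2L:13512254-13514498, with scores of 1.03, 0.93 and 1.14 in replicate 1 and 2.14, 1.94 and 2.22 in replicate 2. Some clusters not matched one to one overlapped replicate regions that stood further apart in place, in either direction, but these regions were largely different stretches of the arm. At 2R:13302558-13304172 the replicate 1 region was 3359 bp wide, at the 59.1th percentile, and the replicate 2 region 1710 bp, at the 3.44th. Their starts differed by 3205 bp. At 3L:4793108-4794694 the regions were 1439 bp wide, at the 18.2th percentile, and 7796 bp, at the 68.7th, with starts 7755 bp apart. In both cases the replicate regions overlapped each other only slightly and also reached other clusters, so the percentiles do not describe a change of 1 region.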
